A study of Mus musculus with 8 samples.

Results

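The genes described here handle the inhibitory transmitter GABA and the related small amino acids glycine and taurine: Gad1 and Gad2 make GABA, Slc32a1 loads GABA and glycine into synaptic vesicles, Slc6a11 and Slc6a13 take up GABA, Slc6a9 takes up glycine, Slc6a6 takes up taurine, and Abat breaks GABA down. They were picked by name, 8 of the 41079 genes in the count tables, with the knockout-over-wildtype fold changes of these libraries already known. That comparison is therefore given for them as a description, without a test of their own. RNA was sequenced from the cochlea's sensory strip, the organ of Corti, dissected from mice on the day of birth (P0). The 4 libraries labelled conditional Prox1 knockout carry Emx2-cre, a Cre recombinase driven by Emx2, together with floxed Prox1, and the 4 others are labelled wildtype; the labels do not say whether the wildtype mice carry either allele. They do not say either whether a library is 1 animal or a pool, so errors here measure the spread between libraries, which may be technical.

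GABA is made from glutamate by the glutamate decarboxylases of Gad1 and Gad2, is packed into vesicles by the transporter of Slc32a1, acts on ionotropic and G-protein-coupled receptors, and is cleared by sodium- and chloride-coupled carriers of the Slc6 family. In the cochlea GABA is known from terminals of the olivocochlear efferent neurons, whose cell bodies lie in the brainstem and so outside this dissection. Taurine, carried by the Slc6a6 protein, is an abundant organic osmolyte rather than a classical transmitter.

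The libraries labelled knockout held 29908965 to 32613549 counts and the wildtype libraries 32863533 to 42318233, with each library labelled knockout below each wildtype one (two-sided exact permutation test over 70 assignments, p = 0.0286, which is the minimum here). Values are CPM, counts scaled to a common library size after TMM, edgeR's correction for composition; means carry the SD over the 4 libraries of a group and log2 fold changes their SE. Prox1 itself was higher in the libraries labelled knockout, at 139 ± 5.71 CPM beside a wildtype mean of 111 ± 4.29 CPM, a log2 fold change of 0.33 ± 0.05 that passed (adjusted p = 0.0298, edgeR). Emx2, the Cre driver gene, had 19.7 ± 2.39 CPM in the libraries labelled knockout and 16.2 ± 1.61 CPM in wildtype, and was not called. The level of Prox1 goes against the label, and reads of the floxed part were not analysed here, so every direction below is that of the libraries as labelled. Markers of hair cells and supporting cells were present in all libraries, with 0 of 12 hair cell markers and 0 of 12 supporting cell markers averaging under 1 CPM. Hair cell markers summed to 631 to 695 CPM under the knockout label and 631 to 743 CPM in wildtype. Markers of periotic mesenchyme and fibrocytes summed to 13867 to 16133 CPM under the knockout label and 15765 to 18336 CPM in wildtype. Such sums do not give shares of cells, but the libraries also held cells outside the sensory epithelium. Summed markers of the stria vascularis and melanocytes lay at 190 to 216 CPM under the knockout label and at 229 to 309 CPM under wildtype, highest in wildtype libraries 1 and 3.

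Of the 8 genes, 7 passed the low-count filter, and 0 of these 7 were called by edgeR at an adjusted p of 0.05, where 0.0923% of all 20581 tested genes did. DESeq2 and limma-voom called 0 of them too, and 1 of the 7 had an unadjusted p under 0.05 in edgeR, as did 7.55% of all tested genes (980 higher and 573 lower). For 0 of the 7 did the groups lie apart without overlap, which 3.69% of tested genes did. Their log2 fold changes were above 0 in 4 and below 0 in 3, with a median of 0.03, beside a median of 0.00 over all tested genes. The members were chosen with this comparison known, so these counts carry no weight beyond describing them.

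**Figure D1:**
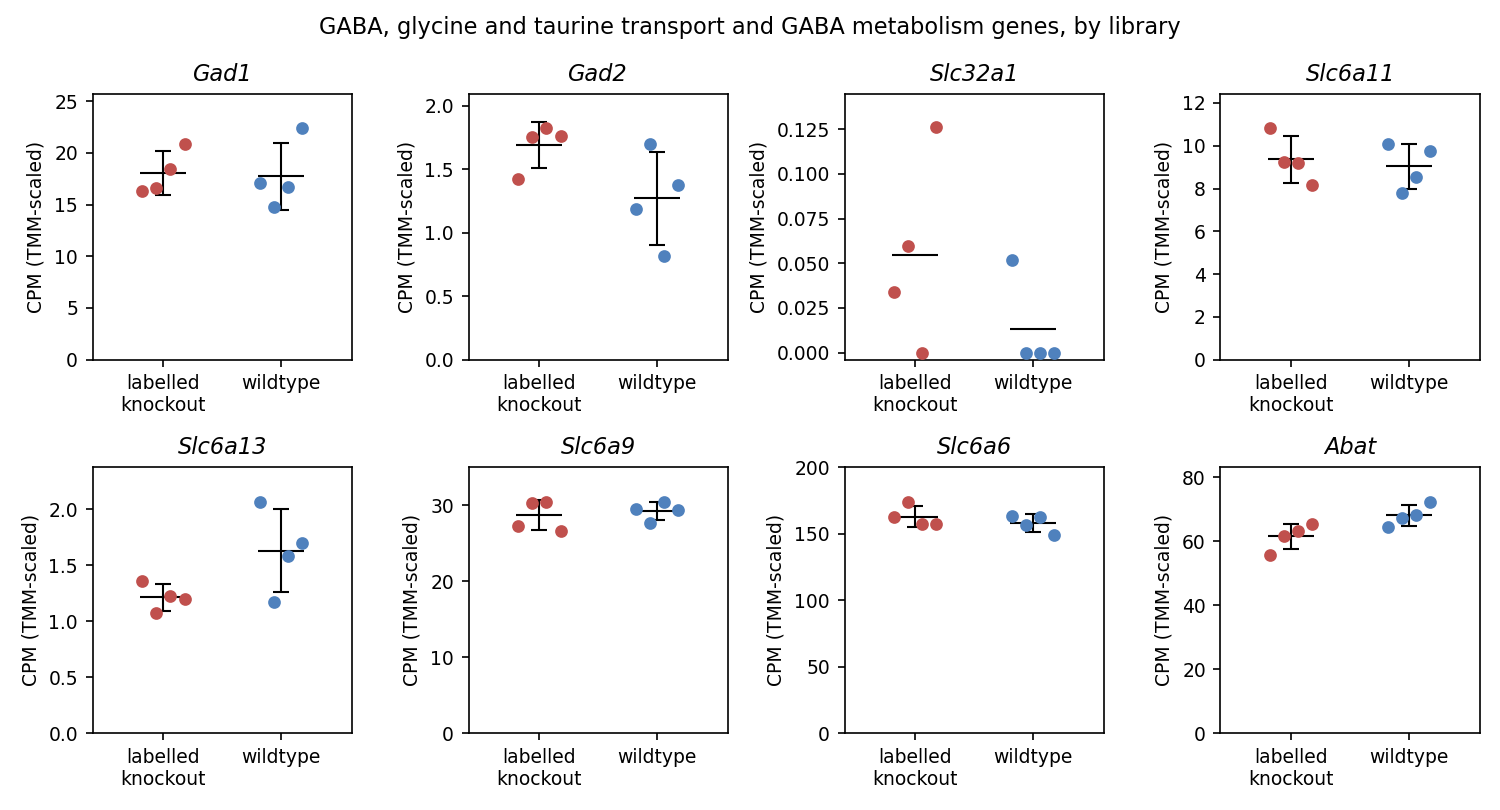
CPM of each of the 8 genes (vertical axes, each from its own 0) in the 4 libraries labelled knockout (red) and the 4 wildtype libraries (blue), with replicates 1 to 4 from left to right; the horizontal line is the mean and bars are the SD, drawn for all genes but Slc32a1. The groups overlap for every gene that passed the filter, with Abat lying nearest to a separation at 55.9 to 65.3 CPM in the libraries labelled knockout against 64.6 to 72.4 CPM in wildtype.

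Of the 2 genes for GABA synthesis, Gad1 was the more abundant and differed less between the groups. Gad1, which encodes the larger decarboxylase isoform, had 16.3, 16.6, 18.5 and 20.9 CPM in libraries 1 to 4 labelled knockout, and 17.0, 14.8, 16.7 and 22.4 CPM in wildtype libraries 1 to 4. Library 4 was the highest of its group in both, and the wildtype values enclosed all those of the libraries labelled knockout. The mean was 18.1 ± 2.10 CPM under the knockout label and 17.7 ± 3.27 CPM under wildtype, and the log2 fold change was 0.03 ± 0.12 with a 95% interval of -0.24 to 0.30, that is between 0.846-fold and 1.23-fold. Gad2, which encodes the isoform associated with synaptic vesicles, was counted 42, 59, 61 and 56 times in libraries 1 to 4 labelled knockout and 46, 74, 28 and 46 times in wildtype libraries 1 to 4. As CPM these are 1.42, 1.75, 1.82 and 1.77 under the knockout label, against 1.19, 1.70, 0.820 and 1.37 in wildtype. The 3 highest values were libraries labelled knockout, but wildtype library 2 lay above library 1 labelled knockout, so the groups overlapped. Gad2 averaged 1.69 ± 0.18 CPM in the libraries labelled knockout and 1.27 ± 0.37 CPM in wildtype, with a log2 fold change of 0.40 ± 0.23 (95% interval -0.09 to 0.90). With wildtype libraries 1 and 3, those with the highest stria sums, left out together the fold change was 0.13. The same libraries held the lowest wildtype values of Gad2 (1.19 and 0.820 CPM), so a smaller fold change follows from leaving them out.

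Slc32a1, the vesicular transporter that defines neurons releasing GABA or glycine, was almost absent. It was counted 1, 2, 0 and 4 times in libraries 1 to 4 labelled knockout and 2, 0, 0 and 0 times in wildtype libraries 1 to 4. A count of 0 allows, at 3 counts per library and for counting error only, up to 0.0691 to 0.0897 CPM, and the highest value seen was 0.126 CPM, in library 4 labelled knockout. The gene did not pass the filter and no fold change is given. The lncRNA gene Gm14204, which overlaps it, averaged 0.0390 CPM in the libraries labelled knockout and 0.0204 CPM in wildtype, and because it is not known whether counting used strand, reads of the 2 genes cannot be told apart. Among 12 markers of brain GABAergic neurons, 8 averaged under 1 CPM, and Ptf1a, a determinant of inhibitory neurons of hindbrain and spinal cord, had 0 counts in all libraries. The 12 markers summed to at most 31.4 CPM in a library labelled knockout and to 31.2 to 36.8 CPM in wildtype, most of it from the neuropeptide gene Npy (14.1 CPM under the knockout label, 16.6 CPM in wildtype) and from Pax2, which encodes a transcription factor (9.29 CPM under the knockout label, 10.9 CPM in wildtype).

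The 2 plasma membrane GABA carriers among the 8 genes differed in level and in how they varied. Other Slc6 carriers are described further below. Slc6a11, a carrier best known from astrocytes, had 10.8, 9.25, 9.21 and 8.17 CPM in libraries 1 to 4 labelled knockout and 10.1, 7.80, 8.55 and 9.74 CPM in wildtype libraries 1 to 4. Library 1 was the highest of its group in both, and the ranges nearly coincided. The mean was 9.36 ± 1.09 CPM under the knockout label and 9.04 ± 1.06 CPM under wildtype, with a log2 fold change of 0.05 ± 0.12 (95% interval -0.21 to 0.31). Slc6a13, a carrier known from the leptomeninges, liver and kidney, was counted 40, 36, 41 and 38 times in libraries 1 to 4 labelled knockout and 80, 51, 54 and 57 times in wildtype libraries 1 to 4. In CPM it stood at 1.36, 1.07, 1.23 and 1.20 under the knockout label, against 2.07, 1.17, 1.58 and 1.70 in wildtype. Wildtype library 1 was the highest, while wildtype library 2 lay within the range of the libraries labelled knockout. Slc6a13 averaged 1.21 ± 0.12 CPM in the libraries labelled knockout and 1.63 ± 0.37 CPM in wildtype. The log2 fold change was -0.43 ± 0.21 (95% interval -0.88 to 0.03), and -0.24 with wildtype libraries 1 and 3 left out together. Library 1 held the highest wildtype value of Slc6a13, so a smaller fold change follows from leaving it out. Summed markers of leptomeninges and fibroblasts lay at 872 to 1006 CPM with the knockout label, against 890 to 1087 CPM in wildtype, those of endothelium and pericytes at 519 to 542 CPM with the knockout label and 526 to 640 CPM in wildtype, and those of red cells at 1428 to 2591 CPM with the knockout label and 1777 to 4068 CPM in wildtype. No gene of these 3 lists was at 0 in all libraries. Sums follow the most abundant genes, in the leptomeninges list Lum and Dcn, and can hide scarcer ones. Log2 fold changes were below 0 for all 9 tested genes of the leptomeninges list and all 10 of the endothelium list. The red cell list had 6 of 7 below 0, and all tested genes had 10290 of 20581 below 0. With group means subtracted, Pearson's r of Slc6a13 was 0.95 with red cells and 0.38 with each of the other 2 lists. It was 0.71 with brain GABAergic markers (mostly Npy and Pax2), 0.63 with hair cells, 0.62 with periotic mesenchyme and 0.53 with the stria list. The part of any list in the values of Slc6a13 was not tested. In bulk tissue, fewer cells of a type and less RNA per cell cannot be told apart.

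The glycine and taurine carriers held almost the same level in all 8 libraries. Slc6a9, a glycine carrier of glia and of some epithelial and blood cells, had 27.3, 30.3, 30.4 and 26.7 CPM in libraries 1 to 4 labelled knockout and 29.5, 27.6, 30.5 and 29.4 CPM in wildtype libraries 1 to 4. The wildtype range lay within that of the libraries labelled knockout but for its highest value. The mean was 28.7 ± 1.95 CPM under the knockout label and 29.2 ± 1.18 CPM under wildtype and the log2 fold change was -0.03 ± 0.07 (95% interval -0.17 to 0.12). Ccdc24, a coding gene that overlaps Slc6a9 in the RefSeq table, reached at most 26% of the counts of Slc6a9 in a library, and without strand the 2 cannot be fully told apart. Slc6a6 had 163, 174, 157 and 157 CPM in libraries 1 to 4 labelled knockout and 163, 157, 163 and 149 CPM in wildtype libraries 1 to 4. One library labelled knockout, replicate 2, lay above all others, and 1 wildtype library, replicate 4, below all others. Slc6a6 averaged 163 ± 7.89 CPM in the libraries labelled knockout and 158 ± 6.60 CPM in wildtype, with a log2 fold change of 0.04 ± 0.05. Its 95% interval of -0.07 to 0.16, or 0.953-fold to 1.12-fold, was the narrowest of the 7.

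Abat, the mitochondrial transaminase that turns GABA into succinic semialdehyde, had 55.9, 61.6, 63.3 and 65.3 CPM in libraries 1 to 4 labelled knockout and 64.6, 67.3, 68.2 and 72.4 CPM in wildtype libraries 1 to 4. Library 4 labelled knockout lay just above wildtype library 1, and no other library labelled knockout reached the wildtype range. The mean was 61.5 ± 4.05 CPM under the knockout label and 68.1 ± 3.24 CPM under wildtype, with a log2 fold change of -0.15 ± 0.06, or 0.903-fold. Abat was the gene of the 7 whose unadjusted 95% interval, -0.28 to -0.02, lay on one side of 0, and it did not pass the adjusted threshold. The fold change stayed between -0.18 and -0.10 with 1 library left out, but its unadjusted p did not stay under 0.05. That p was under 0.05 in 12 of 17 alternative fits, and was 0.103 in edgeR without library 1 labelled knockout.

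**Figure D2:**
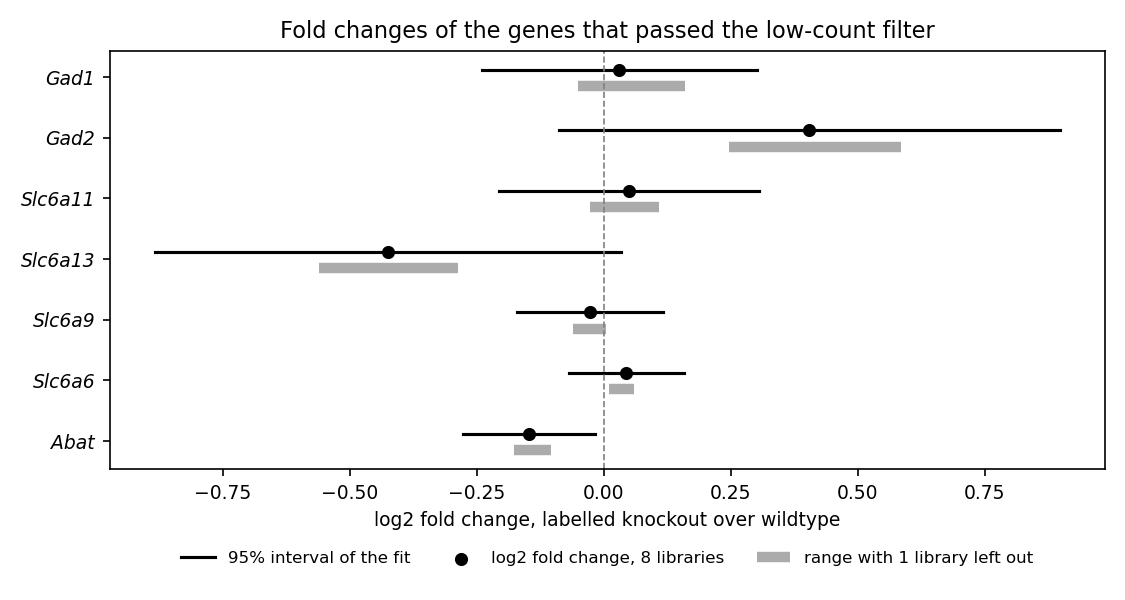
Log2 fold change of the 7 genes that passed the low-count filter, labelled knockout over wildtype (horizontal axis), with the unadjusted 95% interval of the fit (black) and the range over the 8 fits with 1 library left out (grey). Slc6a6 and Abat have the narrowest intervals, and Gad2 at 0.40 and Slc6a13 at -0.43 lie farthest from 0 with the widest ones.

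The authors' deposited table, a DESeq2 comparison whose direction is not stated in the file, lists log2 fold changes of -0.15 for Abat, -0.43 for Slc6a13, 0.40 for Gad2, 0.04 for both Slc6a6 and Slc6a11, 0.02 for Gad1 and -0.03 for Slc6a9. These values, and 0.32 for Prox1, have the signs of the knockout-over-wildtype fold changes given above. By the authors' deposited table, 86 of 41079 genes have an adjusted p under 0.05, and none of the 8 is among them. For Slc32a1 the authors' deposited table gives no adjusted p.

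Levels of different genes were compared as CPM per kilobase of exonic length, with lengths from the GENCODE M21 annotation. On this scale the order of mean levels ran Slc6a6, Abat, Slc6a9, Gad1, Slc6a11, Slc6a13, Gad2 and Slc32a1. Slc6a6 stood at 19.3 ± 0.93 CPM per kilobase in the libraries labelled knockout and 18.7 ± 0.78 in wildtype, above 87.1% of tested genes with a length. Abat stood at 7.94 ± 0.52 CPM per kilobase under the knockout label and 8.79 ± 0.42 CPM per kilobase in wildtype and Slc6a9 at 5.58 ± 0.38 under the knockout label and 5.69 ± 0.23 in wildtype, both above the median of 4.47 over tested genes. Gad1, Slc6a11, Slc6a13, Gad2 and Slc32a1 lay below that median. Gad1 had 2.36 ± 0.28 CPM per kilobase under the knockout label and 2.32 ± 0.43 CPM per kilobase in wildtype, and Slc6a11 had 1.85 ± 0.22 under the knockout label and 1.79 ± 0.21 in wildtype. These 2 were the only neighbours in the order whose values overlapped over the 8 libraries, Gad1 being the higher in 7 of the 8. Slc6a13 had 0.418 ± 0.040 CPM per kilobase in the libraries labelled knockout and 0.562 ± 0.13 in wildtype, and Gad2 had 0.288 ± 0.031 under the knockout label and 0.216 ± 0.063 in wildtype. Gad2 thus stood above 6.76% of tested genes, and Slc6a13 above 13.1%. Slc32a1, the last in the order, had 0.0196 CPM per kilobase under the knockout label and 0.0046 CPM per kilobase in wildtype.

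**Figure D3:**
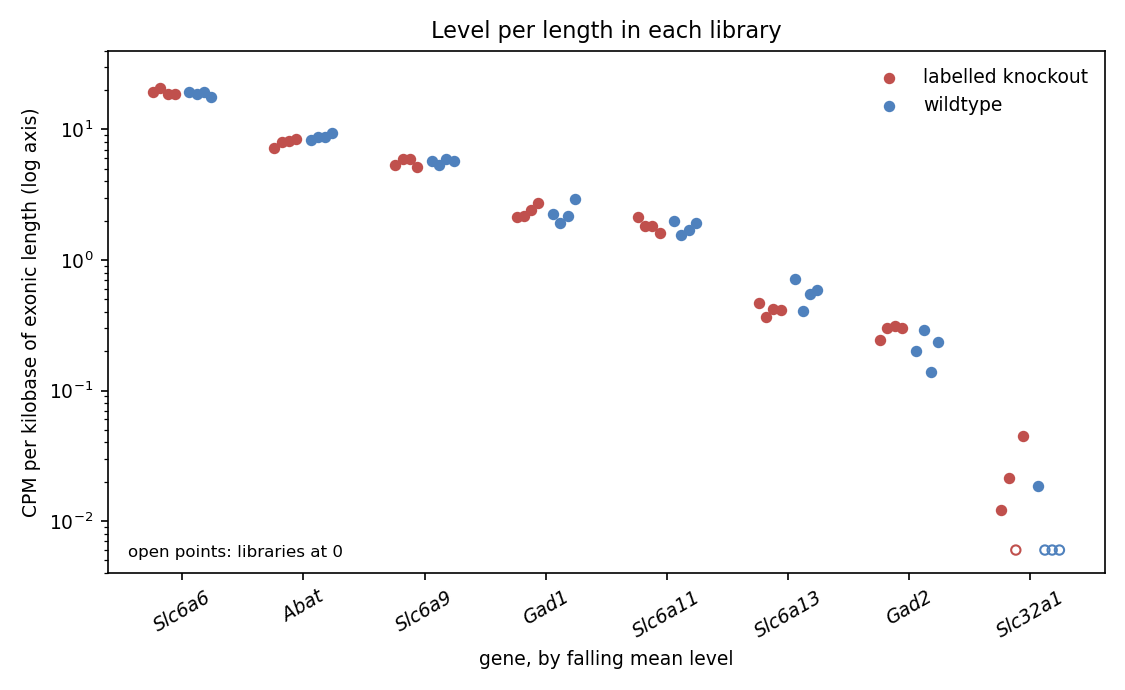
Level of each gene in CPM per kilobase of exonic length (logarithmic vertical axis) in the 4 libraries labelled knockout (red) and the 4 wildtype libraries (blue), genes in order of mean level; open points mark libraries at 0. Slc6a6 lies between 17.6 and 20.6 in all libraries and Slc32a1 at or below 0.0451, and Gad1 and Slc6a11 are the neighbours that overlap.

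The genes also differed in how much they varied between libraries of 1 group. The coefficient of variation of Slc6a6, Slc6a9 and Abat was between 4.02 and 6.81% in either group, where counting error alone gives 1.30 to 3.29%. For Gad1 it was 11.7% in the libraries labelled knockout and 18.4% in wildtype, against 4.15% under the knockout label and 3.91% in wildtype from counting. Slc6a11 varied by 11.7% in both groups, against 5.78% under the knockout label and 5.45% in wildtype from counting. Gad2 and Slc6a13 were the least precisely counted of the 7. Gad2 varied by 10.7% in the libraries labelled knockout and 29.0% in wildtype, where counting gives 13.5% under the knockout label and 14.4% in wildtype. Slc6a13 varied by 9.69% under the knockout label and 22.6% in wildtype, where counting gives 16.1% under the knockout label and 12.9% in wildtype. In the libraries labelled knockout, the spread of these 2 genes was thus no larger than counting error, and in wildtype it was larger.

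After the mean of each group was subtracted from log2 CPM, Slc6a11 and Slc6a13 varied together over the 8 libraries (Pearson's r = 0.78), as did Gad1 and Abat (r = 0.72), which make and break down GABA. Slc6a6 and Gad1 varied in opposite ways (r = -0.67), and Gad1 and Gad2 showed next to no relation (r = 0.07). These are 3 of the more extreme values and 1 near 0 among 21 pairs, they are descriptions over 8 libraries that share depth and composition, and they carry no test. Of the 91 correlations with summed marker lists, the highest was that of Slc6a13 with red cell genes (r = 0.95). Slc6a13 was counted only 36 to 80 times per library, and its spread under the knockout label was no larger than counting error. Of 12452 single genes compared, 81 also had an r over 0.9 with Slc6a13. Wildtype library 1, with the most Slc6a13, also had the highest red cell sum, 4068 CPM, and library 2 was lowest in both measures within each group. Slc6a11 followed the same list with r = 0.78. Gad1 followed the hair cell list with r = 0.71, that list being highest in wildtype library 4 (743 CPM), the library with the most Gad1. Gad2 had its lowest correlation with the list of brain GABAergic neuron markers, at -0.67. That sum is mostly Npy and Pax2, so it says little on such neurons.

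**Figure D4:**
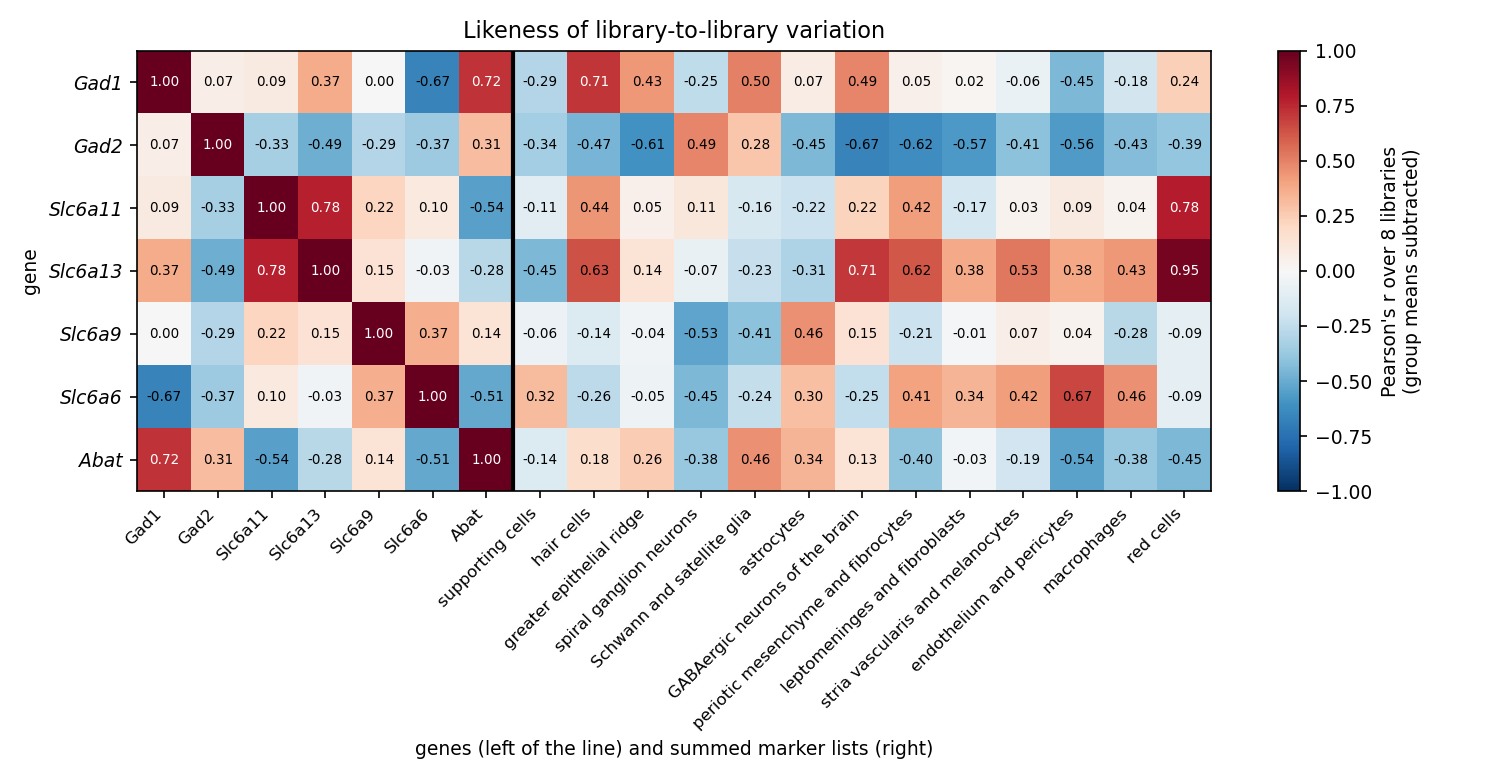
Pearson's r over the 8 libraries, with group means subtracted from log2 CPM, between each of the 7 genes (rows) and, in columns, the same genes left of the black line and 13 summed marker lists right of it. The darkest red cells of the plot outside the diagonal are Slc6a13 with red cells (0.95), Slc6a13 with Slc6a11 (0.78), Slc6a11 with red cells (0.78) and Gad1 with Abat (0.72).

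Among tested genes whose mean log2 CPM reached 2, the 3 that varied most like each gene, again with group means subtracted, were as follows. For Gad1 they were Shank2 (r = 0.98), which encodes a postsynaptic scaffold protein, Kif19a (0.98), a ciliary kinesin gene, and Nagk (0.96). For Gad2 they were Zfp1008, Dlgap1 and Hdhd3 (0.96 each). Abat was followed most closely by Mthfs (0.97), Arhgef26 (0.96) and the Wnt antagonist gene Dkk2 (0.96). Slc6a11 was closest to Nudt18 (0.96), Rnaseh2c (0.96) and Arhgdig (0.95), and Slc6a13 to Zfp868 (0.99), Oscp1 (0.97) and the survival factor gene Mcl1 (0.97). For Slc6a9 they were Dlx3, Dyrk1b and Bcar3 (0.97, 0.95 and 0.95), and for Slc6a6 Angptl1, Bsdc1 and the potassium channel regulator gene Abcc9 (0.98, 0.97 and 0.96). Between 14 and 81 genes had an r over 0.9 with each of the 7, of 12451 or 12452 compared, and no p is given.

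Genes that act beside these 8 were taken from 5 lists, whose counts at an unadjusted p under 0.05 stand beside the same 7.55% over all tested genes. Of 16 other Slc6 carriers, 11 were tested, and 1 was called lower and 0 higher, where 0.0923% of all tested genes were called. At an unadjusted p under 0.05 in edgeR, 2 of the 11 were lower, including the gene called, and 0 higher. The list's median log2 fold change was -0.03. Slc6a8, the creatine carrier and the most abundant of them, had 54.3 ± 1.80 CPM in the libraries labelled knockout and 57.2 ± 2.40 CPM in wildtype, a log2 fold change of -0.07 ± 0.05. Of 21 GABA receptor subunit genes, 14 were tested and 0 passed in edgeR's or DESeq2's test, 1 having an unadjusted p under 0.05 in edgeR, with a median of 0.07. That one was Gabre, the epsilon subunit, at 8.17, 7.85, 10.6 and 6.72 CPM in libraries 1 to 4 labelled knockout and 5.77, 7.07, 4.71 and 6.30 CPM in wildtype libraries 1 to 4. Its groups overlapped, and the log2 fold change of 0.48 ± 0.16 did not pass (adjusted p = 0.573, edgeR). Gabbr1, a subunit of the metabotropic GABA-B receptor, was the most abundant receptor gene, also per length, with 9.93 ± 1.6 CPM per kilobase under the knockout label and 8.66 ± 1.71 CPM per kilobase in wildtype, while its partner Gabbr2 had 1.91 ± 0.39 under the knockout label and 1.77 ± 0.58 in wildtype. Gabrb2, the highest ionotropic subunit gene per length, had 2.47 ± 0.18 CPM per kilobase under the knockout label and 2.58 ± 0.23 CPM per kilobase in wildtype.

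Of 11 genes for glycine receptors and the scaffold of inhibitory synapses, 9 were tested and 0 passed in either tool or at an unadjusted p under 0.05, with a median of 0.03. Glrb, the glycine receptor beta subunit, had 26.7 ± 3.64 CPM in the libraries labelled knockout and 30.1 ± 3.00 CPM in wildtype (log2 fold change -0.17 ± 0.10), and Nlgn2, an adhesion protein of inhibitory synapses, 155 ± 4.17 CPM under the knockout label and 152 ± 5.14 CPM in wildtype. Glra3 had 0 counts in all libraries. All 20 genes for GABA, glycine and taurine metabolism were tested, and 0 passed in either tool or at an unadjusted p under 0.05, with 6 above and 14 below 0 and a median of -0.04. Shmt2, a mitochondrial enzyme that interconverts serine and glycine, was the 1 of these genes whose groups did not overlap, at 35.0 ± 0.82 CPM under the knockout label and 38.0 ± 1.71 CPM in wildtype, beside 3.69% of all tested genes. Glul, the glutamine synthetase gene, had 164 ± 12.6 CPM under the knockout label and 172 ± 14.0 CPM in wildtype. Of 9 chloride transporter and channel genes that set or use the gradient on which GABA acts, 8 were tested and 0 passed in either tool, 1 having an unadjusted p under 0.05 in edgeR, with a median of 0.02. Clcn2, that gene, encodes a chloride channel and had 46.1 ± 4.88 CPM in the libraries labelled knockout and 40.1 ± 1.62 CPM in wildtype, with a log2 fold change of 0.20 ± 0.08. Slc12a2, the chloride importer of secretory epithelia, stood at 875 ± 52.8 CPM under the knockout label and 951 ± 78.1 CPM in wildtype, and Slc12a5, the neuronal chloride exporter, at 6.67 ± 0.94 CPM under the knockout label and 6.01 ± 0.90 CPM in wildtype.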

How the data were processed

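Per the labels' protocols, ribosomal RNA was removed and NEBNext Ultra II was used for the libraries. The build GRCm39 and the tools HISAT2 2.2.1, cutadapt 4.3, FastQC 0.12.1, featureCounts and DESeq2 come from the submitters' processing notes; which annotation and strand setting were used is not given in the sources used here. Raw counts for each gene are what the authors deposited; their group means and SDs of those counts were not used. Per the file headers, the authors' DESeq2 table gives the log2 fold change and its standard error, the Wald score, and the raw and adjusted p-value.

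Genes were filtered with filterByExpr (minimum count 10; 20581 tested), scaled by TMM and tested with edgeR 4.0.16 (R 4.3.3) by its quasi-likelihood test, genotype alone, with Benjamini-Hochberg adjustment over all tested genes and a threshold of 0.05. DESeq2 1.42.0 and limma 3.58.1 (voom) were alternatives. Log2 CPM for correlations used a prior count of 2. Exonic lengths came from GENCODE M21 (GRCm38, an older build than the authors'), which gave 83.1% of tested genes a length; overlapping genes came from the RefSeq table of GRCm38.p6, and no coordinates are printed. Sensitivity of the count depends on depth, and intervals of the fit cover the spread between libraries.

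The genes, lists and tests were chosen with earlier results of these data known. Beyond the 8 genes, those named are, per list, the most abundant gene and up to 3 that passed, or else the one with the smallest p; the 3 most similar genes per member; and Prox1. Genes outside this rule (Gabrb2, Gabbr2, Slc12a5, Ptf1a, Npy, Pax2, Glra3, Ccdc24 and Gm14204) were named after their values were seen, and most marker genes of the rule are given as sums. The Slc6 gene called lower is not reported here. Every pair of libraries in a group differed by more than sampling noise (lowest chi-square per degree of freedom 10.7). The labels do not say whether replicate numbers pair the libraries, and the main fit did not treat them as pairs.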

Additional observations from a re-analysis of the deposited data

Results flagged for a closer look

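Slc32a1 in wildtype library 1 stood apart from the other 3 wildtype libraries, at 0.0517 CPM against 0 in each. It rests on 2 counts, below the 3 counts that a count of 0 allows. Of 40 gene and group combinations screened for a library far from its group by the gap to its nearest neighbour, this was the 1 found. The screen's chance rate of about 1 in 20 holds for continuous values. It does not apply here, because a group with 1 library above 0 and the rest at 0 is marked whatever its counts.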

How the results depend on the processing

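None of the 7 tested genes was called in either direction under any of the 19 alternative settings, and Slc32a1, which is tested where no filter is used, was not called there. The smallest adjusted p over these settings was 0.259, for Abat, in edgeR, DESeq2 or limma with Benjamini-Hochberg adjustment. The fold changes of Abat, Slc6a13, Gad2 and Slc6a6 kept their sign in all 17 alternative fits; those of Gad1 (-0.05 to 0.16), Slc6a11 (-0.03 to 0.11) and Slc6a9 (-0.06 to 0.01) crossed 0. Abat ranged from -0.18 to -0.10, Slc6a13 from -0.56 to -0.24, Gad2 from 0.13 to 0.58 and Slc6a6 from 0.01 to 0.09.

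Over all genes, 7 were called higher and 12 lower. Those called higher were 4 with plain library totals, 12 without a filter, 35 with DESeq2, 2 without wildtype libraries 1 and 3 together, 2 at an adjusted p of 0.01, and 2 to 7 with 1 library left out. Those called lower were 24 without a filter, 48 with DESeq2, 7 without wildtype libraries 1 and 3 together, and 8 to 20 with 1 library left out, 20 being without library 4 labelled knockout. Of the genes on the 5 pathway lists, 1 was called, and 0 without wildtype libraries 1 and 3 together. That fit has fewer wildtype libraries, and the cause of the lost call was not tested. With the replicate number as a block, 3 genes were called higher and 12 lower; same-numbered libraries had correlations of -0.28 to 0.21, and not every library matched its own number best. Depth limits Gad2, Slc6a13 and Slc32a1 most.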
